A study of Mus musculus with 6 samples.

Results

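The genes described here are 10 markers of Bergmann glia and astrocytes, *Gfap*, *Gdf10*, *Slc1a3*, *Slc1a2*, *Aqp4*, *Aldh1l1*, *Sox9*, *Hopx*, *S100b*, and *Fabp7*, out of the 53715 genes in the table. They were chosen by name as genes known to mark these glia, with no threshold on their values but with earlier results of these data known. RNA was measured in the whole cerebellum of 3 control and 3 *Slc39a8*-NSKO mice, 1 library for each mouse, all male and 4 weeks old. The strain is C57BL/6 in the labels and C57BL/6J in the study's methods. *Slc39a8* encodes a metal ion transporter that carries manganese. In the *Slc39a8*-NSKO mice, a Cre recombinase under the neuronal *Synapsin I* promoter deletes the floxed *Slc39a8* alleles. The promoter is a neuronal one, and deletion in glia was not measured here. The labels call the controls WT, whereas in the study the control genotype is given as *Slc39a8* fl/fl, and the counts per gene do not tell these apart. For the targeted gene *Slc39a8*, the libraries of control mice 1 to 3 held 99, 46, and 44 counts and those of the *Slc39a8*-NSKO mice held 38, 40, and 41. These counts are not scaled for the depth of the library. Scaled to the TMM-normalized library size (CPM), *Slc39a8* was 4.78, 3.20, and 2.83 in control mice 1 to 3. It was 1.90, 2.05, and 2.18 CPM in *Slc39a8*-NSKO mice 1 to 3, lower with no overlap. The log2 fold change of *Slc39a8* was −0.83 ± 0.237 (SE), with edgeR's unadjusted p at 0.00359 and its adjusted p at 0.534. The counts on genes ranged from 14431260 to 20844267 in a mouse, and control mouse 2 had the lowest number.

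Bergmann glia are the radial astrocytes of the cerebellum. Their cell bodies lie beside the Purkinje cells, and their processes cross the molecular layer, where they guide migrating granule cells during development and later wrap the synapses on Purkinje cell dendrites. They take up glutamate from these synapses, buffer potassium, and touch the pial surface with their endfeet. The granular layer and the white matter hold other astrocytes with a more branched shape. Most of the 10 genes are used in both kinds of astrocyte, and *Gdf10* and *Hopx* are among those used to mark Bergmann glia. RNA from a whole tissue cannot tell fewer glia from less RNA in each of them.

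All 10 markers were well above the filter on low counts and were tested. Their counts lay between 399, for *Sox9* in control mouse 2, and 23231, for *Slc1a3* in *Slc39a8*-NSKO mouse 1, so that no marker was near 0 in any mouse. Between the genotypes, none of the 10 passed an adjusted p of 0.05 in edgeR's quasi-likelihood test, where 0.098% of the 16330 genes tested did. Higher genes past this threshold were 0.0245% of all. None of the 10 passed with DESeq2 or with limma-voom, where 0.136% and 0.0735% of all genes did. DESeq2 was run without the filter on low counts, so its shares are of 27181 genes, and those of limma-voom are of 16330. At an unadjusted p below 0.05, *Gfap*, *Aqp4*, and *Hopx* were higher in *Slc39a8*-NSKO cerebellum in all 3 tools, which is 3 of 10 markers, and 2.25% of all genes were higher at this level in edgeR's test, 0.802% in DESeq2, and 2.22% in limma-voom. In the same 3 markers every *Slc39a8*-NSKO mouse had a higher value than every control mouse, as in 5.07% of all genes tested. Genes lower with no overlap were 5.26% and genes with no overlap in either direction 10.3% of all, and no marker was lower with no overlap. The log2 fold change was above 0 in 9 of the 10 markers and in 50.5% of all genes, and its median was 0.07 over the markers and 0.0011 over all genes. Without control mouse 2 it was above 0 in 7 of the 10, with a median of 0.04, and without control mouse 1 or 3 the median was 0.12.

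The sequences before the start sites of 3 markers are shown because *Gfap* and *Hopx* are the markers with both an unadjusted p below 0.05 and a sequence to show, and *Slc1a3* is the only marker in which a searched motif was found. They are RefSeq sequences of GRCm38.p6, each the 250 bases before an annotated start, 5′ to 3′ on the gene's strand. *Gfap* is shown from chr11:102897201-102897450, minus strand, which lies within the span of the gene in the GENCODE annotation because other annotated transcripts start farther upstream. *Hopx* is shown from chr5:77115124-77115373, minus strand, the outer of its 2 starts. *Slc1a3* is shown from chr15:8710808-8711057, minus strand. Capitals mark the motifs found.
Gfap: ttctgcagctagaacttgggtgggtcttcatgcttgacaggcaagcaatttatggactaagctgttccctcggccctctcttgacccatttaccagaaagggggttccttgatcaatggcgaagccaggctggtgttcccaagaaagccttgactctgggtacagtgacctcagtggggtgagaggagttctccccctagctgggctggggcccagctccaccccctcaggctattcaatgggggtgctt
Hopx: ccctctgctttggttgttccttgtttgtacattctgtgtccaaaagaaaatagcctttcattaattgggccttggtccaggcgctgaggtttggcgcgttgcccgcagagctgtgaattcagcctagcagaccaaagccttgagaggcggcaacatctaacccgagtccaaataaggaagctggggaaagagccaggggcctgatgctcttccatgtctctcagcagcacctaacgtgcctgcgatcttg
Slc1a3: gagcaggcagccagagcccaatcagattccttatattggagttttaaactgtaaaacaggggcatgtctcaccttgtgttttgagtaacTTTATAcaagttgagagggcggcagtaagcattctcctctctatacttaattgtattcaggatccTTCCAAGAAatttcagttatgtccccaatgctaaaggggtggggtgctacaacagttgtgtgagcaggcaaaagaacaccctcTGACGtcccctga
The letters of 4 motifs were searched on both strands in the 9 windows of the 8 markers that had one to show. In *Slc1a3*, the TATA box letters TATAAA were found on the opposite strand at position −161 from the start. They are present in 12.4% of the 32851 windows of this length. The same window held the STAT letters TTCNNNGAA at −96, present in 7.02% of all windows, and the letters TGACG of the cAMP response element at −13, present in 17.8%. The SOX letters ACAATG, in 10.7% of all windows, were in no window of the markers. The *Gfap* and *Hopx* windows held none of the 4, and the 3 motifs of *Slc1a3* did not overlap each other. The median GC content was 54.8% over the markers' windows and 52.4% over all windows.

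*Gfap* (ENSMUSG00000020932.14, minus strand of chromosome 11 from 102887336 to 102900912) encodes the intermediate filament protein of astrocytes, which is abundant in Bergmann glia fibers. It was 222, 161, and 222 CPM in control mice 1 to 3 and 269, 252, and 280.3 CPM in *Slc39a8*-NSKO mice 1 to 3, where CPM stands for counts scaled to the TMM-normalized library size. Control mouse 2 was far below the other control mice, and the genotypes did not overlap. The means were 202 ± 35.1 CPM in control and 267 ± 14.2 CPM in *Slc39a8*-NSKO mice (SD, n = 3 each), 1.32-fold higher with a 95% interval from 1.14 to 1.53. On the log2 scale the genotypes differed by 0.40 (SE 0.097, unadjusted p = 0.00105, adjusted p = 0.301 in edgeR), and *Gfap* was number 57 of all genes by p. The exact two-sided permutation test of the 6 mice gave p = 0.1, the smallest that 3 mice against 3 allow. Without control mouse 2 the log2 fold change was 0.27, the lowest of the fits that left out a mouse, and the genotypes still did not overlap. Its adjusted p depended on the setting, at 0.0349 with the replicate number as a block and 3.24e-09 with no filter on low counts, while over all genes 0.251% and 0.655% passed with these settings. In no other setting did a marker pass, and the share of all genes past the threshold was then 0.098% with RLE normalization and with counts not rounded, 0.0919% with library size alone, and 0.0736% with at least 10 counts in every mouse. With a mouse left out, this share was 0.229%, 0.114%, and 0.0956% without control mice 1 to 3 and 0.0902%, 0.0542%, and 0.114% without *Slc39a8*-NSKO mice 1 to 3.

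*Aqp4* (ENSMUSG00000024411.9, minus strand of chromosome 18 from 15389496 to 15410982) encodes the water channel of astrocyte endfeet. Control mice 1 to 3 had 430, 359, and 408 CPM and *Slc39a8*-NSKO mice 1 to 3 had 489, 440.1, and 443 CPM. The lowest *Slc39a8*-NSKO mouse lay close above control mouse 1, and control mouse 2 was again the lowest. This was a difference of 0.20 on the log2 scale (SE 0.068, unadjusted p = 0.0118, adjusted p = 0.802 in edgeR). Leaving out control mouse 2 gave 0.13 and leaving out *Slc39a8*-NSKO mouse 1 gave 0.15, and in both fits *Aqp4* no longer had an unadjusted p below 0.05.

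**Figure D1:**
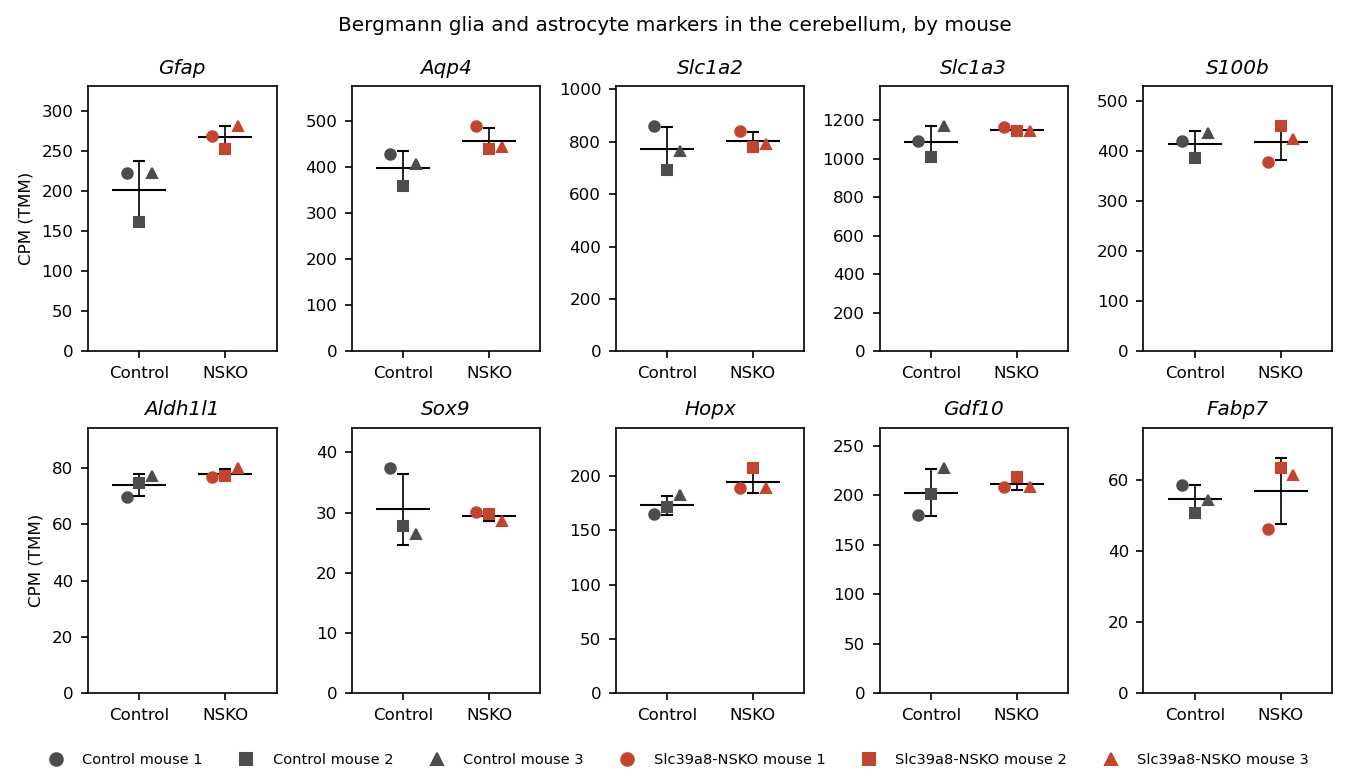
Level of each of the 10 markers in each mouse, in CPM (TMM-normalized, linear axes from 0). Points are mice, horizontal lines are means and bars are SD (n = 3 each). The *Slc39a8*-NSKO points of *Gfap*, *Aqp4*, and *Hopx* all lie above the control points, and those of the other 7 markers overlap with them.

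The glutamate transporters GLAST and GLT-1 carry most of the uptake of synaptic glutamate by astrocytes, and *Slc1a3* (GLAST) is the main one of Bergmann glia. *Slc1a3* (chromosome 15, 8634124 to 8710764) was 1092, 1006, and 1166 CPM in control mice 1 to 3 and 1163, 1144, and 1141 CPM in *Slc39a8*-NSKO mice 1 to 3. The genotypes overlapped through control mouse 3, the highest of the 6, and the *Slc39a8*-NSKO mice were closer together than the control mice. Its log2 fold change was 0.08 (SE 0.057, edgeR adjusted p = 0.994), and the 95% interval allows a level from 97.0% to 115% of control. *Slc1a2* (GLT-1, chromosome 2, 102658659 to 102790784) was 859, 694, and 764 CPM in control and 840.1, 782, and 793 CPM in *Slc39a8*-NSKO mice. Control mice 1 and 2 were the highest and the lowest of the 6, so that the *Slc39a8*-NSKO mice lay between them. Its log2 fold change of 0.06 (SE 0.069, edgeR adjusted p = 0.994) was −0.01 without control mouse 2. Per kilobase of merged exons, *Slc1a3* was 2.18 ± 0.202 times as high as *Slc1a2* in control and 2.20 ± 0.063 times in *Slc39a8*-NSKO mice (SD, n = 3 each). Per kilobase of the longest transcript this ratio was 3.70 ± 0.343 and 3.74 ± 0.106. The antisense gene *Gm13872* overlaps exons of *Slc1a2*, and the sources used here do not state whether the counting used the strand. The expected counts of *Slc1a2* were whole numbers in every mouse.

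*Aldh1l1*, *S100b*, and *Fabp7* encode a folate enzyme used as a general astrocyte marker, a calcium-binding protein, and a fatty acid-binding protein that is high in radial glia. *Aldh1l1* was 69.5, 74.8, and 77.3 CPM in control mice 1 to 3 and 76.6, 77.0, and 79.8 CPM in *Slc39a8*-NSKO mice 1 to 3, and control mouse 3 lay among the *Slc39a8*-NSKO mice. Its log2 fold change was 0.08 (SE 0.060, edgeR adjusted p = 0.994). A long noncoding RNA on the same strand and an antisense RNA overlap exons of *Aldh1l1*, whose expected counts were whole numbers in every mouse. *S100b* was 420.1, 387, and 437 CPM in control and 379, 449, and 425 CPM in *Slc39a8*-NSKO mice, of which mouse 1 was the lowest and mouse 2 the highest of the 6. The log2 fold change of *S100b* was 0.01 (SE 0.066, edgeR adjusted p = 0.997), and its interval allows a level from 91.2% to 111% of control. *Fabp7* was 58.5, 50.7, and 54.3 CPM in control and 46.1, 63.2, and 61.2 CPM in *Slc39a8*-NSKO mice. As in *S100b*, *Slc39a8*-NSKO mouse 1 was the lowest and mouse 2 the highest, and the log2 fold change of *Fabp7* was 0.06 (SE 0.102, edgeR adjusted p = 0.994).

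*Sox9*, a transcription factor of the glial lineage on chromosome 11 from 112782224 to 112787760, was the only marker with a log2 fold change below 0. It was 37.3, 27.7, and 26.5 CPM in control mice 1 to 3 and 30.1, 29.7, and 28.5 CPM in *Slc39a8*-NSKO mice 1 to 3. Control mouse 1 stood above all others, and the *Slc39a8*-NSKO mice lay between it and the other control mice. This gave a log2 fold change of −0.06 (SE 0.109, edgeR adjusted p = 0.994), and without control mouse 1 it was 0.12.

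*Hopx* encodes a homeodomain protein that does not bind DNA, and it lies on the minus strand of chromosome 5 from 77086988 to 77115121. It was 165, 171, and 182 CPM in control mice 1 to 3 and 189, 207, and 188 CPM in *Slc39a8*-NSKO mice 1 to 3. The genotypes did not overlap, although control mouse 3 was close to *Slc39a8*-NSKO mice 1 and 3. The means of 173 ± 8.74 CPM and 195 ± 10.4 CPM (SD, n = 3 each) correspond to a log2 fold change of 0.17 (SE 0.058, unadjusted p = 0.0104, adjusted p = 0.774 in edgeR). With a mouse left out, the log2 fold change of *Hopx* lay between 0.13 and 0.21, and without *Slc39a8*-NSKO mouse 2, where it was lowest, its unadjusted p was no longer below 0.05. Its counts were not whole in any of the 6 mice and the antisense RNA *Hopxos* overlaps its exons, so that reads can have been divided between them and the value is uncertain.

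*Gdf10* encodes a secreted factor of the BMP family and lies on chromosome 14 from 33923587 to 33937983. It was 180.2, 202, and 227 CPM in control mice 1 to 3 and 208, 219, and 208 CPM in *Slc39a8*-NSKO mice 1 to 3. Control mice 1 and 3 were the lowest and the highest of the 6. *Gdf10* had a log2 fold change of 0.06 (SE 0.072, edgeR adjusted p = 0.994), and without control mouse 1 it was −0.02. Of *Gdf10* and *Hopx*, which are among the genes used to mark Bergmann glia, *Gdf10* thus overlapped between the genotypes and *Hopx* did not. The difference between their fold changes was not tested.

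**Figure D2:**
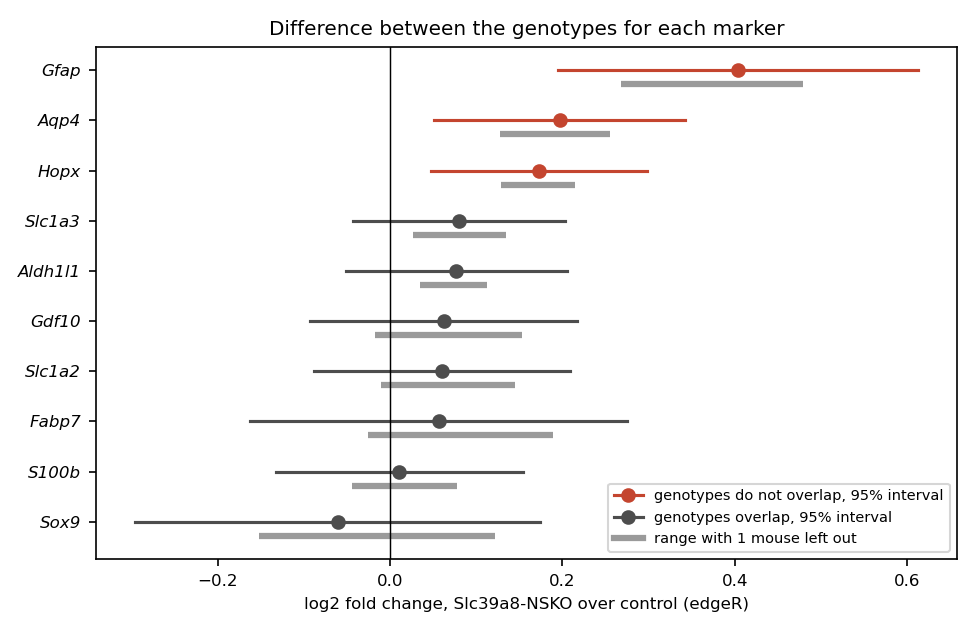
Log2 fold change of each marker, *Slc39a8*-NSKO over control, from edgeR's quasi-likelihood fit. Points and thin lines are the estimate and its 95% interval, thick gray lines span the estimates with each mouse left out in turn, and red marks the 3 markers whose genotypes did not overlap. The intervals of *Gfap*, *Aqp4*, and *Hopx* lie above 0, and those of the other 7 markers include 0.

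Control mouse 2, the mouse with the lowest counts, was below the mean of the 6 mice in all 10 markers. Control mice 1 and 3 were below it in 5 and 6 markers. Control mouse 2 was the lowest of the 6 in 4 markers, *Gfap*, *Aqp4*, *Slc1a2*, and *Slc1a3*. Control mouse 1 was the lowest in 3, *Gdf10*, *Aldh1l1*, and *Hopx*. How often each mouse was the lowest or below the mean over all genes was not counted. *Slc39a8*-NSKO mouse 3 was below the mean in 1 marker and the other *Slc39a8*-NSKO mice in 2 each. Summed over the 10 markers, control mice 1 to 3 had 3533, 3132, and 3564 CPM and *Slc39a8*-NSKO mice 1 to 3 had 3690, 3663, and 3649 CPM, which did not overlap. These sums were 0.313% to 0.356% of the counts in control and 0.365% to 0.369% in *Slc39a8*-NSKO mice. Their largest parts were *Slc1a3* and *Slc1a2*, with means of 1088 and 772 CPM of a mean sum of 3410 CPM in control mice. Both of these genes overlapped between the genotypes. How often sums of other sets of 10 genes do not overlap was not counted. When 1 mouse was left out, between 3 and 6 of the markers were higher without overlap. There were 3 such markers, *Gfap*, *Aqp4*, and *Hopx*, without control mouse 2, where 9.23% of all genes were. There were 6 without control mouse 3 (9.44% of all genes), 5 without control mouse 1 (12.6%), and 4, 3, and 3 without *Slc39a8*-NSKO mice 1 to 3 (10.4%, 9.53%, and 9.41%).

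**Figure D3:**
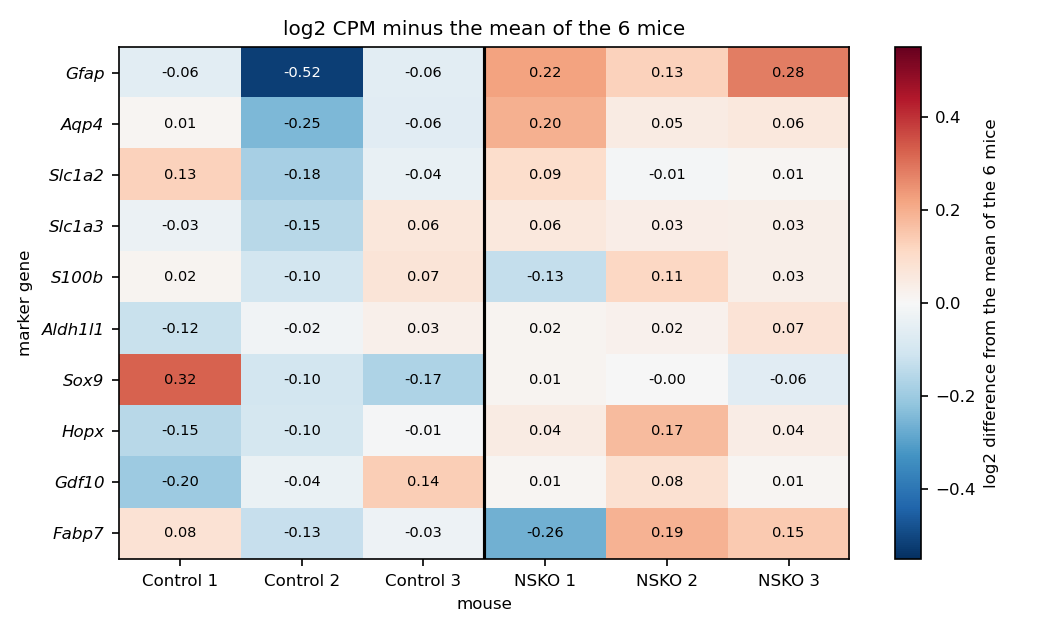
Difference of each marker's log2 CPM from its mean over the 6 mice, one column for each mouse, with the value in each cell and red for above and blue for below the mean. The column of control mouse 2 is below 0 throughout, with −0.52 in *Gfap*, and that of *Slc39a8*-NSKO mouse 1 is above 0 except in *S100b* (−0.13) and *Fabp7* (−0.26).

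*Gfap* was also compared with the other markers within each mouse, a description chosen after its values were seen and therefore given with no test. The ratio of *Gfap* to the geometric mean of the other 9 markers was 1.06, 0.839, and 1.07 in control mice 1 to 3 and 1.29, 1.15, and 1.31 in *Slc39a8*-NSKO mice 1 to 3. The ratio of *Gfap* to *Gdf10* was 1.23, 0.799, and 0.976 for control mice 1 to 3, against 1.29, 1.15, and 1.35 for *Slc39a8*-NSKO mice. The first ratio did not overlap between the genotypes, while in the second control mouse 1 lay among the *Slc39a8*-NSKO mice.

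Levels of different genes were compared per kilobase of merged exons. *S100b* was highest with 279 ± 17.0 CPM per kb in control mice (SD, n = 3), followed by *Slc1a3* with 127 ± 9.40 and *Hopx* with 114 ± 5.76 CPM per kb. *Aqp4* (64.0 ± 5.81), *Slc1a2* (58.8 ± 6.31), *Gfap* (47.8 ± 8.33), *Fabp7* (43.6 ± 3.14), and *Gdf10* (39.0 ± 4.52 CPM per kb) came next. *Aldh1l1* with 16.4 ± 0.876 and *Sox9* with 7.38 ± 1.43 CPM per kb were the lowest, and the highest level was 37.9 times the lowest. Over the 6 mice, the ranges of *Slc1a3* and *Hopx* overlapped, as did those of each pair of neighbors from *Aqp4* to *Gdf10*, so that these neighbors are not ordered beyond their spread. With the length of the longest transcript in place of merged exons, *Gfap* came before *Slc1a2*, and *Slc1a3* was at 245 ± 18.1 CPM per kb in control mice (SD, n = 3). Its range over the 6 mice, 227 to 263, then overlapped that of *S100b*, 256 to 303, and no longer that of *Hopx*, 131 to 164 CPM per kb. The ranges of *Fabp7* and *Gdf10* no longer overlapped either.

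**Figure D4:**
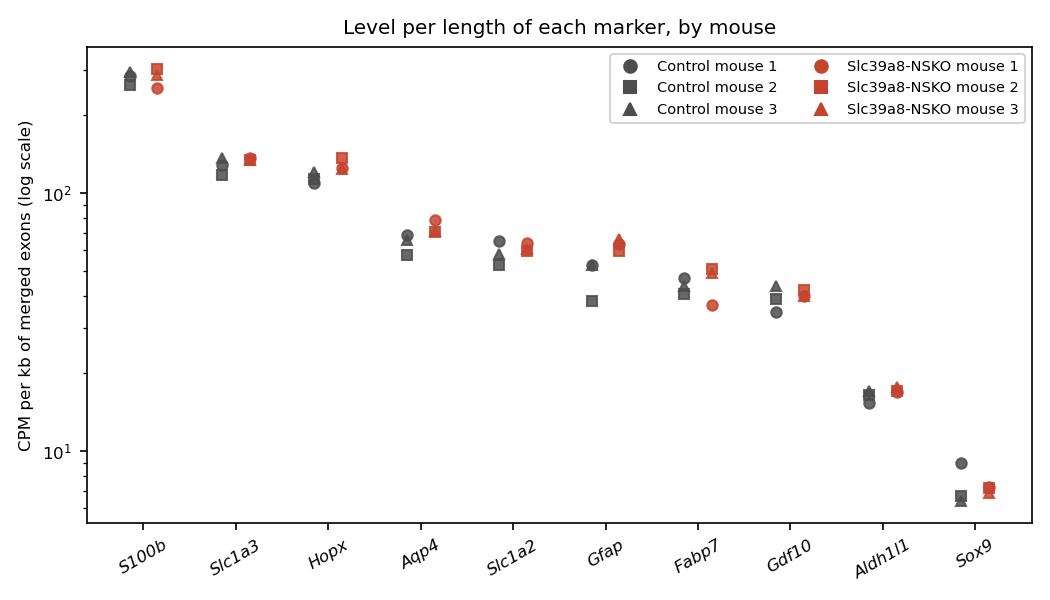
Level of each marker per kilobase of merged exons in each mouse (CPM per kb, log axis), in the order of the control means. *S100b* is above all other markers and *Aldh1l1* and *Sox9* are below all others in every mouse, and the markers from *Aqp4* to *Gdf10* overlap with their neighbors.

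Other genes of the same cells were taken from 6 lists, which share some genes. Together with 9 lists of other cell types they hold 184 genes, of which 175 were tested. None of the 175 passed an adjusted p of 0.05 in edgeR's test, nor did any with DESeq2 or limma-voom, and 16 had an unadjusted p below 0.05, where 5.39% of all genes did. Of 35 other astrocyte genes, 31 had a log2 fold change above 0, and 28 did without control mouse 2, when the share over all genes was 50.9%. Their median log2 fold change was 0.06 (0.035 without control mouse 2), and 5 of the 35 were higher with no overlap and none lower, against 5.07% and 5.26% of all genes. At an unadjusted p below 0.05 in edgeR's test, 1 of the 35 was higher and 0 were lower, against 2.25% and 3.14% of all genes. *Gja1*, the gap junction protein connexin 43, was 245, 208, and 246 CPM in control mice 1 to 3 and 274, 248, and 269.8 CPM in *Slc39a8*-NSKO mice 1 to 3, with a log2 fold change of 0.18 (SE 0.068, edgeR adjusted p = 0.867). *Mlc1*, a membrane protein of astrocyte endfeet, had a log2 fold change of 0.12 and did not overlap either. The other 3 without overlap, *Mfge8*, *Gpr37l1*, and *Cspg5*, named after their values were seen, had log2 fold changes from 0.05 to 0.09. *Slc7a10* (0.13) and *Apoe* (0.03) overlapped between the genotypes.

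Of 19 other Bergmann glia genes, 11 had a log2 fold change above 0, and the median was 0.01. It was −0.0030 without control mouse 2, with 9 above 0, and 0.051 without control mouse 1, with 13 above 0, and it lay between 0.020 and 0.044 with any other mouse left out. At an unadjusted p below 0.05, 1 of the 19 was higher and 2 were lower, against 2.25% and 3.14% of all genes. *Wif1*, a secreted Wnt inhibitor, had a log2 fold change of 0.51 (edgeR adjusted p = 0.908) at 3.49 CPM in control mice. *Gabra2*, a GABA-A receptor subunit, had −0.63 (SE 0.239, edgeR adjusted p = 0.860) and *Mybpc1* had −0.20. The genotypes overlapped in each of these. *Sox2*, named after its values were seen, was higher with no overlap (log2 fold change 0.14), and *Sept4* was lower with no overlap (−0.07).

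Genes that handle glutamate and glutamine had a median log2 fold change of 0.02, with 10 of 16 above 0, and the median was 0.032 without control mouse 1. *Glul*, the glutamine synthetase of astrocytes, was 933 ± 37.1 CPM in control and 942 ± 18.7 CPM in *Slc39a8*-NSKO mice (SD, n = 3 each), with a log2 fold change of 0.01. The glutamine transporter *Slc38a1* was higher with no overlap (log2 fold change 0.10), as was *Slc38a3* (0.09), which was named after its values were seen. Of the 16, 2 were higher and 1 was lower with no overlap, against 5.07% and 5.26% of all genes. At an unadjusted p below 0.05 in edgeR's test, 0 were higher and 1 was lower. Of 12 genes of endfeet and potassium buffering, 9 had a log2 fold change above 0 (median 0.08, and 0.035 without control mouse 2). Of this list 2, *Gja1* and *Mlc1*, were higher with no overlap and 0 were lower, against 5.07% and 5.26% of all genes. *Dag1*, the dystroglycan of endfeet, had 0.12 and the bicarbonate transporter *Slc4a4* −0.09, both with overlap.

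*Gfap* is also a classical gene of reactive astrocytes, and the other genes of that state were examined. Of 38 such genes, 31 were tested and 20 had a log2 fold change above 0, with a median of 0.04. *Vim*, the intermediate filament partner of *Gfap* protein, was 187, 184, and 196 CPM in control mice 1 to 3 and 175, 206, and 192 CPM in *Slc39a8*-NSKO mice 1 to 3. *Slc39a8*-NSKO mice 1 and 2 were the lowest and the highest of the 6, and the log2 fold change of *Vim* was 0.01 (SE 0.063, edgeR adjusted p = 0.997). *C3*, a complement gene, had a log2 fold change of 1.02 (SE 0.437, edgeR adjusted p = 0.908) with no overlap, at 0.400 ± 0.114 CPM in control and 0.842 ± 0.302 CPM in *Slc39a8*-NSKO mice (SD, n = 3 each). *Fkbp5*, which glucocorticoids induce, had 0.51 and the small heat shock gene *Hspb1* had −0.28, both with overlap. *H2-T23* (0.25) and *Cd44* (−0.20), named after their values were seen, did not overlap, and *H2-D1* had 0.02. Of the 31, 2 were higher and 1 was lower with no overlap, against 5.07% and 5.26% of all genes. At an unadjusted p below 0.05 in edgeR's test, 2 were higher and 1 was lower, against 2.25% and 3.14% of all genes. The median of this list was −0.0050 without *Slc39a8*-NSKO mouse 2 and 0.16 without control mouse 1. Leaving out each of the other 4 mice gave 0.020 to 0.076. Among 16 tested paralogs of the markers, none had an unadjusted p below 0.05 and none was without overlap, against 5.39% and 10.3% of all genes, with log2 fold changes from −0.08 to 0.48 and the highest in *Aqp1*.

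Markers of other cells were summed in the same way, and their part in the glial values was not tested. No gene of these lists was at 0 in any mouse. The sum of 9 microglia markers was 123 to 139 CPM in control and 145 to 146 CPM in *Slc39a8*-NSKO mice with no overlap. Of the 9, 2 were higher with no overlap and 0 were lower. *Csf1r*, which was among these 2, had a log2 fold change of 0.25 (edgeR adjusted p = 0.671). Control mouse 2 had the lowest sum of microglia markers as well. The sum of 13 oligodendrocyte markers was 8810 to 10048 CPM in control and 8208 to 9898 CPM in *Slc39a8*-NSKO mice. Of the 13, 1 was lower with no overlap, *Opalin* (log2 fold change −0.22), and 0 were higher, against 5.26% and 5.07% of all genes. The log2 fold change was above 0 in 1 of the 13, against 50.5% of all genes, and its median was −0.07. With a mouse left out, this median lay between −0.17 (without *Slc39a8*-NSKO mouse 3) and −0.020 (without *Slc39a8*-NSKO mouse 1), and it was −0.035 without *Slc39a8*-NSKO mouse 2 and −0.043 without control mouse 3. The 7 choroid plexus markers had a median log2 fold change of 0.35 and overlapping sums of 782 to 1124 CPM in control and 910 to 1567 CPM in *Slc39a8*-NSKO mice. The median was 0.18 without *Slc39a8*-NSKO mouse 2 and between 0.27 and 0.50 with any other mouse left out. *Folr1* of this list had 0.96 (SE 0.219, edgeR adjusted p = 0.228), and it was the 1 of the 7 that was higher with no overlap. Purkinje cell markers summed to 6750 to 7632 CPM in control and 7330 to 7942 CPM in *Slc39a8*-NSKO mice, and *Itpr1* had 0.21. The sums also overlapped for granule cell markers (5120 to 5247 and 5082 to 5574 CPM), endothelial markers (205 to 242 and 210.2 to 232 CPM), oligodendrocyte precursor markers (23.9 to 27.7 and 26.7 to 27.4 CPM), ependymal markers (13.3 to 17.7 and 16.3 to 19.7 CPM), and meningeal and fibroblast markers (127 to 134 and 129.8 to 178 CPM).

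**Figure D5:**
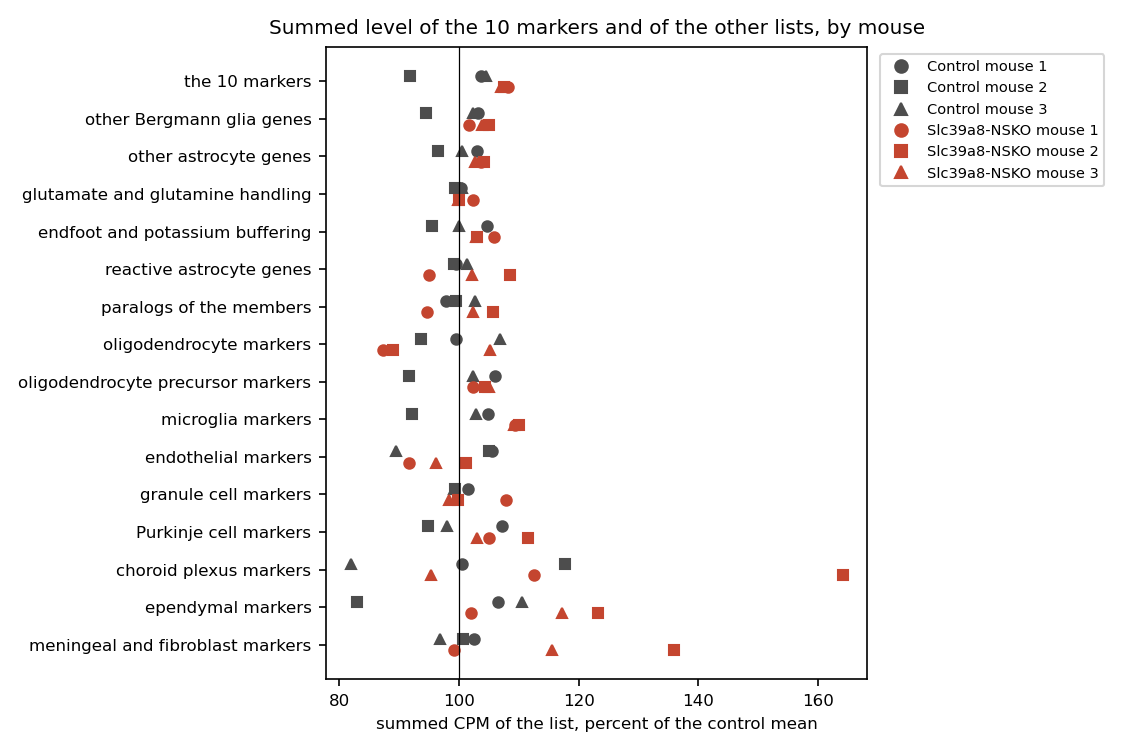
Summed CPM of the 10 markers and of the 15 other lists in each mouse, as percent of the list's control mean (vertical line at 100). The *Slc39a8*-NSKO mice lie above all control mice for the 10 markers and for the microglia markers, and the genotypes overlap in the other lists.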

How the data were processed

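Cerebellar RNA from 3 control and 3 *Slc39a8*-NSKO mice was sequenced. The authors deposited expected counts for each gene and mouse, not normalized for depth or gene length. The submitters' processing notes name FastQC, STAR, RSEM, DESeq2, and the mouse build mm10, with no versions given in the sources used here. According to the study's methods the replicates are separate mice, while a legend calls them technical. If the latter held, p values would measure only technical spread. Of 53807 entries, 92 spike-in sequences (at most 5 counts in a mouse) were left out. The GENCODE M21 annotation of GRCm38 gave names, positions, and lengths for 53620 of 53715 genes.

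Expected counts were rounded, TMM-normalized, filtered with filterByExpr, and tested with the quasi-likelihood test of edgeR 4.0.16 in R 4.3.3, with Benjamini-Hochberg adjustment over 16330 genes and no covariate. Single genes were also compared with exact two-sided permutation tests. Alternatives were DESeq2 1.42.0, limma-voom (limma 3.58.1), other normalizations and filters, unrounded counts, leaving out each mouse, a block on the replicate number, a threshold of 0.1, and longest transcripts as lengths. The tests were tried on simulated counts. With dispersions on the mean trend, the share of false calls was close to the nominal one. With gene-wise dispersions, the version tried first, it was above the nominal share in edgeR, DESeq2, limma-voom, and the fit with the block, so that adjusted p values may be too low.

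The markers and all lists were chosen with earlier results of these data known. Named in the text are the 10 markers, from each glial list the 3 genes with the lowest p and the 2 with the highest CPM, from each other list the gene with the lowest p, and *Slc39a8*, with exceptions stated. Some genes under this rule are not reported here. RefSeq sequences were found for 8 markers to show.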

Additional observations from a re-analysis of the deposited data

How the results depend on the processing

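Across the other settings, 16 genes past an adjusted p of 0.05 became 37 with DESeq2, 178 with no filter on low counts, 41 with the replicate block, 27 at an adjusted p of 0.1, and 9 (without *Slc39a8*-NSKO mouse 2) to 38 (without control mouse 1) with a mouse left out. Of the markers, 1 (*Gfap*) passed with no filter (log2 fold change 0.41, adjusted p = 3.24e-09) and with the block (0.42, adjusted p = 0.0349), and 0 passed in the other settings. With a mouse left out, the adjusted p of *Gfap* lay between 0.0961 and 0.785, and with DESeq2 it was 0.9999. The numbers were not taken as pairs, because same-numbered mice deviated together with correlations of 0.167, 0.129, and 0.0107, and not every mouse correlated best with its own number. Of the genes in the other lists, 8 passed with no filter (*Gabra2*, *Fkbp5*, *Itpr1*, *Clic6*, *Folr1*, *Kl*, *Ttr*, and *Igf2*), and 0 to 1 with a mouse left out (*Itpr1* without control mouse 1). The median log2 fold change of the markers was 0.04 to 0.12 with a mouse left out. The sign turned in 7 of 60 comparisons with a mouse left out, where the log2 fold changes spanned −0.017 to 0.15 for *Gdf10*, −0.15 to 0.12 for *Sox9*, −0.011 to 0.15 for *Slc1a2*, −0.044 to 0.077 for *S100b*, and −0.026 to 0.19 for *Fabp7*. Of 80 comparisons under the other settings, 78 kept their sign and side of the threshold, and the 2 others are those of *Gfap* above. The median marker level was 57.8 CPM per kb of merged exons and 76.4 with longest transcripts, which are shorter in 7 of the 10 markers. The causes of the other differences were not tested.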
